A study of Mus musculus with 4 samples.

Results

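Nodal is a secreted ligand of the TGF-beta family, and the 10 genes described here encode its signalling chain: *Nodal* and *Gdf3* (ligands), *Tdgf1* (co-receptor, also called Cripto), *Acvr2b* (type II receptor), *Lefty1*, *Lefty2* and *Cer1* (secreted antagonists), and *Smad2*, *Smad3* and *Foxh1* (nuclear effectors). They were chosen by symbol from the 22718 genes of the deposited RNA-seq tables, and 9 of the 10 had an RPKM (reads scaled to gene length and library size) of more than 1 in at least 1 library. The study asked what Prep1 binds in mouse embryonic stem (ES) cells and which RNA levels differ in its absence. Prep1 is a homeodomain transcription factor of the TALE class that binds DNA as a dimer with Pbx proteins, and *Pknox1* is its gene. RNA-seq compared 1 wild type library with 1 library labelled *Prep1*-/-, both from C57BL/6 ES cell lines derived in the authors' laboratory and grown with leukemia inhibitory factor. The knockout library came from a single line, KO2. ChIP-seq (1 Prep1 sample and 1 input sample) is labelled wild type C57BL/6, while its protocol names R1 ES cells, another wild type line. The antibody is stated to bind the related protein Prep2 weakly.

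Nodal and Gdf3 signal through activin receptors that need Tdgf1 as a co-receptor. The receptors phosphorylate Smad2 and Smad3, which enter the nucleus with Smad4 and bind target genes with partners such as Foxh1. *Nodal*, *Lefty1* and *Lefty2* are themselves targets, so the chain holds both a positive and a negative feedback loop. In the mouse embryo it patterns the epiblast and is needed for mesoderm and endoderm, and in ES cells cultured with serum the ligands and their antagonists are produced by the cells themselves.

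The deposited counts summed to 29596294 reads for the wild type and 25717811 reads for the library labelled *Prep1*-/-. Both sums exceed the read total stated in the methods, and the reason was not tested. If the same fragment was counted repeatedly, the counting intervals below are too narrow. *Pknox1* had 505 reads (RPKM 7.85) in the wild type and 332 reads (RPKM 5.78) in the knockout, a KO/WT ratio of 0.736 (95% counting interval 0.638 to 0.846). The targeted gene therefore kept part of its reads, which say nothing about Prep1 protein, and each direction below rests on the label of the library. KO/WT ratios divide the RPKM in the knockout library by the RPKM in the wild type. Its interval is the exact Clopper-Pearson interval of the share of reads, rescaled to RPKM, and covers counting error only. Since each genotype has a single library, replicate error is unknown, no test was possible, and the values compare libraries rather than genotypes. The median KO/WT ratio was 0.955 over the 13218 expressed genes, those whose RPKM exceeded 1 in both libraries. The ES cell markers were present in both libraries (*Pou5f1* RPKM 323 and 360).

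None of the 10 genes passed a filter on the study's ratio thresholds, under which a gene is lower at KO/WT ratios under 0.7 and higher at ratios over 1.5. The wild type RPKM had to exceed 1 for the lower genes, and the RPKM of the other library for the higher genes. The study states its RPKM minimum for the wild type. Of all genes with such an RPKM, 13.8% were lower and 7.2% were higher. Taking each deposited count as a separate read, the signalling genes lay on both sides of 1 by more than counting error. The interval lay above 1 for 3 genes (*Lefty2*, *Gdf3* and *Tdgf1*) and below 1 for 5 (*Foxh1*, *Smad2*, *Smad3*, *Acvr2b* and *Lefty1*), while that of *Nodal* spanned 1 and *Cer1* had no read. Under other scalings of the libraries the interval of *Lefty1* reached above 1 in 2 of 3, that of *Acvr2b* in 1 of 3, and that of *Nodal* lay above 1 in all 3. Intervals are narrow at this depth: among the 8118 genes with at least the 978 reads of *Acvr2b*, the lowest of the 9, the interval lay below 1 for 44.3% and above 1 for 25.6%. The shares of the signalling genes were thus near those of all well-covered genes. The median log2 ratio was -0.10 over the 9 genes with reads, beside -0.07 over all genes expressed above an RPKM of 1 in at least 1 library.

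**Figure D1:**
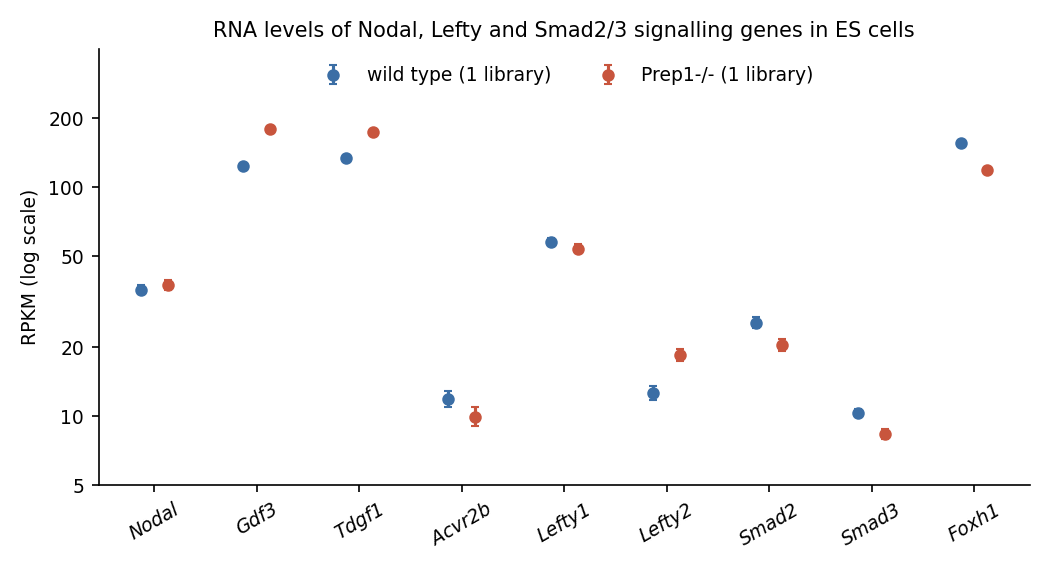
RPKM (log scale) of 9 of the genes in the wild type library (blue) and the library labelled Prep1-/- (red), 1 library each, with bars for the exact 95% Poisson interval of the read count, often smaller than the symbol; Cer1 had 0 reads in both and is not drawn. Foxh1, Tdgf1 and Gdf3 stand above 100 RPKM in both libraries, and Acvr2b, Lefty2 and Smad3 below 20.

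The RPKM levels spanned more than an order of magnitude. Their order between genes depends on the length by which the reads of each gene were divided, which the counting intervals do not cover. *Smad3*, for example, had more reads than *Smad2* in the wild type (2061 and 1291) but a lower RPKM. In the wild type *Foxh1* was highest at 156, followed by *Tdgf1* at 134, *Gdf3* at 124, *Lefty1* at 57.7, *Nodal* at 35.8, *Smad2* at 25.6, *Lefty2* at 12.6, *Acvr2b* at 11.9 and *Smad3* at 10.3. *Foxh1*, *Tdgf1* and *Gdf3* were above 95.8%, 94.9% and 94.3% of all expressed genes, and *Smad3* above 45.2%. The exact Poisson intervals of neighbours in this order did not overlap, except those of *Lefty2* and *Acvr2b*. In the library labelled *Prep1*-/- *Gdf3* (180) and *Tdgf1* (175) led, with overlapping intervals, and *Foxh1* followed at 119. *Smad2* (20.5) and *Lefty2* (18.5) overlapped there too, and the remaining order was that of the wild type.

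*Nodal* (ENSMUSG00000037171, mm9 chr10:60880720-60888086, plus strand), the ligand that gives the pathway its name, had 1888 reads in the wild type and 1765 in the library labelled *Prep1*-/-. Its level was 35.8 and 37.4 RPKM. The KO/WT ratio was 1.05 (0.979 to 1.12), so the libraries did not differ beyond counting error on the scale of the deposited RPKM. *Gdf3* (ENSMUSG00000030117, chr6:122555421-122560105, minus strand) encodes a related ligand that uses the same co-receptor. It had 4517 and 5849 reads, or 124 and 180 RPKM. The KO/WT ratio of 1.45 (1.39 to 1.51) was just inside the threshold of 1.5 and exceeded that of 94.5% of the expressed genes. *Gdf3* was thus 3.47 times *Nodal* in RPKM in the wild type and 4.81 times in the library labelled *Prep1*-/-, a 1.39-fold difference (1.28 to 1.495).

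*Tdgf1* (ENSMUSG00000032494, chr9:110842114-110848662, minus strand), the membrane-anchored co-receptor, had 5046 reads in the wild type and 5870 in the library labelled *Prep1*-/-. Its level was 134 RPKM against 175, a KO/WT ratio of 1.30 (1.25 to 1.35) that exceeded that of 91.0% of the expressed genes. *Acvr2b* (ENSMUSG00000061393, chr9:119311562-119342619, plus strand), the type II receptor on the same chromosome, had 559 and 419 reads, a KO/WT ratio of 0.839 (0.737 to 0.953) on the other side of 1. The RPKM of the co-receptor was 11.3 times that of the receptor in the wild type and 17.5 times in the library labelled *Prep1*-/-. Both genes lie on a chromosome whose expressed genes had a median log2 ratio of -0.08.

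The antagonists *Lefty1* and *Lefty2* are neighbouring paralogs transcribed from the plus strand of chromosome 1, and their RNA shifted relative to each other. *Lefty1* (ENSMUSG00000038793, chr1:182865153-182868531) had 2081 reads in the wild type and 1742 in the library labelled *Prep1*-/-, or 57.7 and 54.0 RPKM. Its KO/WT ratio was 0.936 (0.878 to 0.998). *Lefty2* (ENSMUSG00000066652, chr1:182823239-182829234) had 791 and 1035 reads, or 12.6 and 18.5 RPKM. Its KO/WT ratio of 1.46 (1.33 to 1.61) was the highest of the 10 genes and its interval reached across the threshold of 1.5. *Lefty1* made up 72.5% of all reads of the pair in the wild type (70.8 to 74.1, exact binomial, of 2872 reads) and 62.7% in the library labelled *Prep1*-/- (60.9 to 64.5, of 2777 reads). The ratio of *Lefty2* to *Lefty1* RPKM went from 0.219 to 0.343, a 1.56-fold difference (1.39 to 1.75). The coding sequences of the paralogs are identical at 91.9% of 1107 bases in the annotation. Stretches of 50 bases that both share, the length of 1 read, made up 17.9% of those of *Lefty1* and 11.6% of those of *Lefty2*. Reads from these stretches were divided between them by RSEM, so the values of both carry an uncertainty that the interval does not cover.

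*Cer1* (ENSMUSG00000038192, chr4:82527655-82531052, minus strand), an antagonist made in the endoderm of the gastrulating embryo, had 0 reads in both libraries. At a limit of 3 reads per library this allows up to 0.101 CPM (counts scaled to the library total) in the wild type and 0.117 CPM in the library labelled *Prep1*-/-. The deposited RPKM of a gene without reads is above 0 because 1 read was added to every count, so no ratio is given for it.

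*Smad2* (ENSMUSG00000024563), which carries the signal to the nucleus, had 1291 reads in the wild type and 924 in the library labelled *Prep1*-/-. Its level was 25.6 and 20.5 RPKM, a KO/WT ratio of 0.801 (0.735 to 0.871). *Smad3* (ENSMUSG00000032402, chr9:63494574-63605801, minus strand), its close relative, had 2061 and 1491 reads, or 10.3 and 8.37 RPKM. Its KO/WT ratio was 0.809 (0.756 to 0.865). The ratios of both receptor Smads were below 1 and did not differ from each other beyond counting error: *Smad3* was 0.404 of *Smad2* in RPKM in the wild type and 0.408 in the library labelled *Prep1*-/-, a 1.01-fold difference (0.906 to 1.13).

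*Foxh1* (ENSMUSG00000033837, chr15:76498714-76500378, minus strand) encodes the forkhead factor that brings Smad2 and Smad3 to DNA. It had 5856 reads in the wild type and 3990 in the library labelled *Prep1*-/-, or 156 and 119 RPKM. Its KO/WT ratio of 0.762 (0.732 to 0.793) was the lowest of the 10 genes and exceeded that of 16.9% of the expressed genes. In RPKM *Foxh1* was above *Tdgf1* in the wild type and below it in the library labelled *Prep1*-/-. That order depends on the gene lengths used, while the difference between libraries does not. The ratio of *Tdgf1* to *Foxh1* RPKM went from 0.860 to 1.47, a 1.71-fold difference (1.62 to 1.80). In bulk RNA, fewer cells that express a gene and less RNA per cell cannot be told apart.

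**Figure D2:**
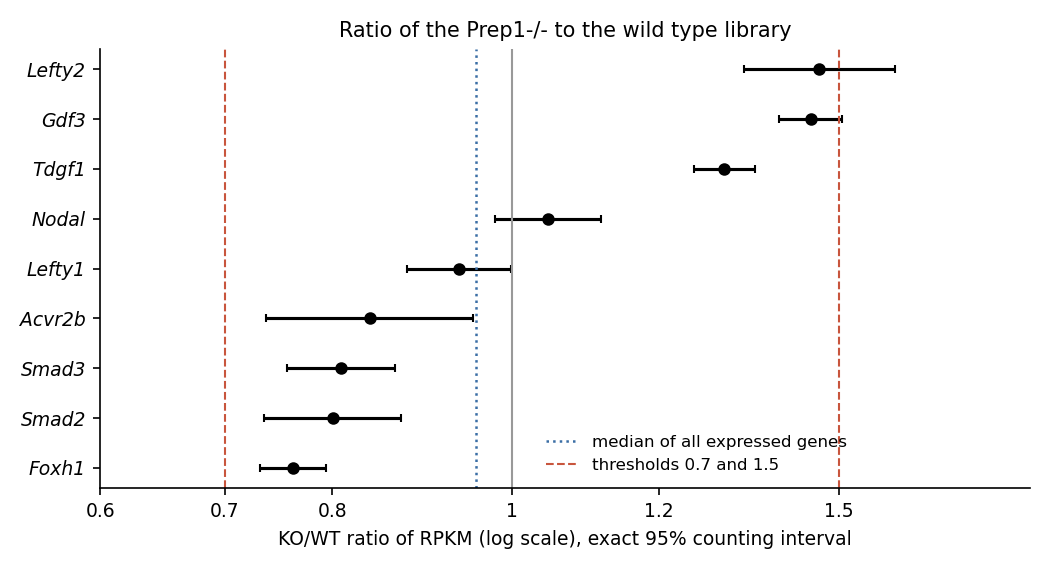
KO/WT ratio of RPKM (log scale) of the 9 genes with reads, with exact 95% counting intervals; dashed lines mark the thresholds of 0.7 and 1.5, the solid line a ratio of 1 and the dotted line the median of expressed genes, 0.955. All points lie between the thresholds, from Foxh1 at 0.762 to Lefty2 at 1.46, and the intervals of Lefty2 and Gdf3 cross 1.5.

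The other ligands of the family were weakly expressed next to *Gdf3*, and 1 of 9 was lower and 1 was higher. Among all genes with an RPKM above 1, 13.8% were lower and 7.2% were higher, so counts in these short lists say little. Of the 9 ligands, 7 exceeded that RPKM in at least 1 library. *Tgfb1* had 1231 and 636 reads, with a KO/WT ratio of 0.578 (0.524 to 0.636). *Inhbb*, which encodes the beta B subunit of activins and inhibins, had 351 and 881 reads, with a ratio of 2.80 (2.48 to 3.19). The ligand with the most reads, *Tgfb2*, had a ratio of 0.821. Of 8 other receptors and co-receptors none passed a filter, and the ratios of the 5 that were expressed in at least 1 library ranged from 0.725 to 0.984. *Eng* (endoglin), with the most reads among them, had a ratio of 0.780. The extracellular regulators held 1 lower gene of 8, *Fst*, which encodes the activin-binding protein follistatin and had 135 and 75 reads (ratio 0.625, 0.462 to 0.830). *Nomo1*, which encodes part of a complex of the endoplasmic reticulum that affects Nodal signalling, had the most reads, with a ratio of 0.907.

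Of 13 intracellular regulators none passed a filter. Their ratios ranged from 0.795 to 1.03, and 10 of the 13 were below 1. Of the 14254 genes above an RPKM of 1 in at least 1 library, 8353 had a ratio below 1. *Tgif1*, a homeodomain corepressor of Smad2, had 28794 and 26153 reads, the most of any gene in the pathway lists, with RPKM values of 217 and 220. The median log2 ratio was -0.28 for the other ligands, -0.09 for the receptors, -0.28 for the extracellular regulators and -0.17 for the intracellular regulators, each over genes above an RPKM of 1 in at least 1 library, where it was -0.07 for all genes.

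The listed targets of Nodal and activin differed more than the signalling genes, and in both directions. Both lists were chosen with earlier results of these data known, so this contrast describes the listed genes only. Of 11 targets, 5 were lower, 2 were higher and 4 passed neither filter. Among all genes with an RPKM above 1, the shares were 13.8% and 7.2%. Only 8 of the 11 targets exceeded that RPKM in at least 1 library. The others could not pass: *Lhx1* (112 and 11 reads, ratio 0.119), *Foxa2* (84 and 39 reads, ratio 0.526) and *Gsc* (16 and 13 reads, ratio 0.921). The lower genes included *T* (brachyury), *Fgf8*, *Mixl1* and *Eomes*. *T*, a T-box factor of the primitive streak, had 1091 reads in the wild type and 242 in the library labelled *Prep1*-/- (RPKM 20.5 and 5.09), a KO/WT ratio of 0.249 (0.215 to 0.285). *Fgf8*, a growth factor of the streak, had 476 and 106 reads, with a ratio of 0.251 (0.200 to 0.308). *Mixl1*, a homeobox gene of mesendoderm, had 163 and 43 reads, with a ratio of 0.300 (0.206 to 0.415).

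*Eomes*, a second T-box factor, had 786 and 354 reads, with a ratio of 0.504 (0.443 to 0.572). In the other direction, *Otx2*, a homeobox gene of the epiblast and forebrain, had 220 and 434 reads, with a ratio of 2.20 (1.87 to 2.61). Among the targets, *Lefty1*, *Lefty2* and *Nodal*, counted with the signalling genes, were between the thresholds.

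Markers of cell types differed alongside these targets. Of 11 markers of primitive and visceral endoderm 5 were lower (*Gata4* 0.339, *Ttr* 0.424, *Gata6* 0.456, *Amn* 0.597 and *Dab2* 0.667), none was higher, and none was at 0 in both libraries. Only 6 of the 11 exceeded an RPKM of 1 in at least 1 library, and the others could not pass. Among all genes with an RPKM above 1, 13.8% were lower and 7.2% were higher. The counting interval lay below 1 for 9 of the 11 markers and above 1 for *Sox7* (ratio 1.39, 1.09 to 1.79). That of *Afp* (1 and 6 reads) spanned 1. The summed RPKM of the 11 markers was 18.3 in the wild type and 9.81 in the library labelled *Prep1*-/-. Of 7 ES cell markers none was lower and 1 was higher (*Klf4*, ratio 1.58). The counting interval lay above 1 for 5 of the 7 and below 1 for *Zfp42* (ratio 0.801, 0.684 to 0.934). That of *Dppa3* (ratio 0.921) spanned 1. *Esrrb*, with the most reads among the ES cell markers, had a ratio of 1.32, and the summed RPKM was 699 and 858. Of 6 fibroblast markers, 4 exceeded an RPKM of 1 in at least 1 library, 1 was lower (*Twist1*, 0.523) and none was higher. *Col1a1* had the most reads (976 and 1186), and the summed RPKM was 27.7 and 31.7. The part of these cell types in the values of the signalling genes and their targets was not tested.

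**Figure D3:**
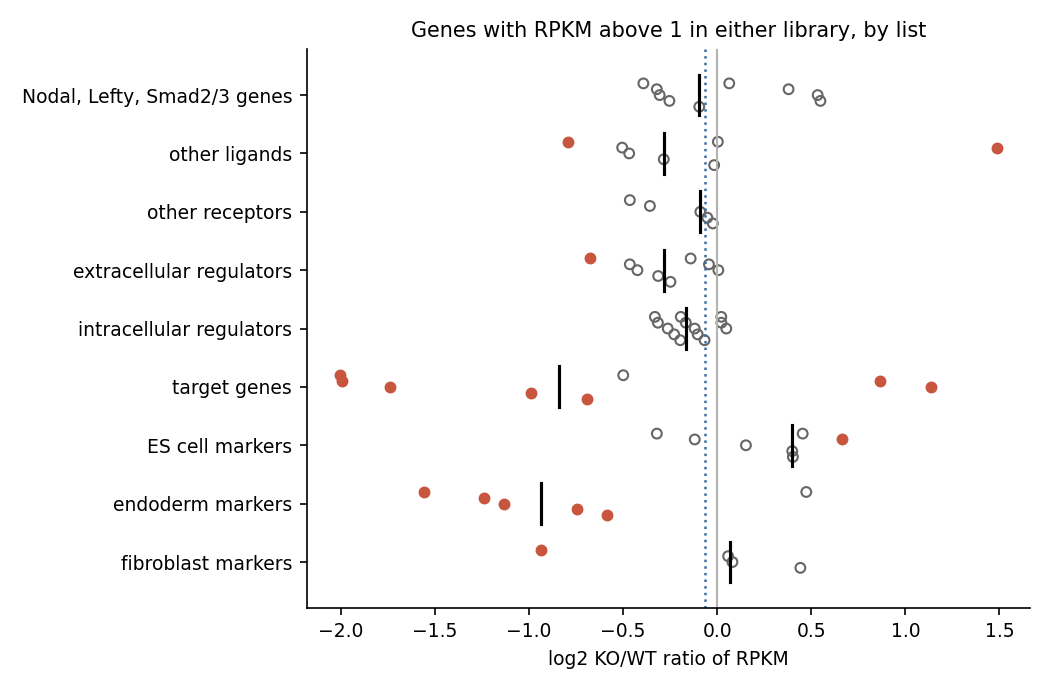
Log2 KO/WT ratio of RPKM for each gene above 1 RPKM in at least 1 library, by list; filled red circles passed a filter, open circles did not, black bars are list medians and the dotted line is the median of expressed genes. The Nodal, Lefty and Smad2/3 genes are all open and lie between -0.39 and 0.55, while the target genes spread from -2.01 to 1.14.

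Prep1 binding was read from the deposited list of 3902 peaks, with a median length of 680 bp and a median fold enrichment over input of 21. A peak in the gene or within 20 kb of its annotated start was found for 4 of the 10 genes (*Lefty1*, *Tdgf1*, *Foxh1* and *Smad2*). This held for 21% of all 21446 genes placed in the annotation, and for 26.4% of those with a wild type RPKM above 1. The peaks come from 1 ChIP sample, so they have no replicate check. Among the 4 genes with a peak by this rule the KO/WT ratio was 1.30 for *Tdgf1*, 0.936 for *Lefty1*, 0.801 for *Smad2* and 0.762 for *Foxh1*. Peaks thus accompanied both directions, though the peak near *Foxh1* lies over the start of a neighbouring gene.

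*Lefty1* had 3 peaks by this rule, a number reached by 83 of 21446 genes (0.387%), among them *Tgif1* of the intracellular regulators. They were centred at -6739 bp (fold enrichment 11), -416 bp (14) and 7643 bp (11) from its start, positive values lying in the direction of the gene. All were below the median enrichment. The peak at 7643 bp lies beyond the end of *Lefty1*, over exons at the start of *Tmem63a*, whose own KO/WT ratio was 0.890 (0.808 to 0.979). *Lefty2* had no peak within 20 kb, and the nearest, at 35175 bp, is the upstream peak of *Lefty1*.

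The *Tdgf1* peak (fold enrichment 23) was centred at -1271 bp, between genes. The *Foxh1* peak (fold enrichment 20) was centred at -1586 bp but spans the start of the neighbouring gene *Ppp1r16a*, which had a KO/WT ratio of 0.960 (0.894 to 1.03) and 1644 and 1412 reads. It thus could not be assigned to 1 of the genes. The *Smad2* peak was centred at 55 bp, on the exon at the start of the gene. Its fold enrichment of 146 exceeded that of 94.3% of all peaks.

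For the 6 genes without such a peak the nearest one varied in distance. It lay at 33559 bp for *Nodal*, within *Eif4ebp2* (RPKM 268 and 267). It lay at 87351 bp for *Gdf3*, -79668 bp for *Acvr2b*, -392415 bp for *Cer1* and -978987 bp for *Smad3*. *Gdf3* and *Lefty2*, the genes with the highest ratios, were thus without a peak within 20 kb, as were *Nodal* and *Smad3*. Of the 11 target genes, 6 had a peak by the same rule, beside 21% of all placed genes and 26.4% of those with a wild type RPKM above 1. Among the 6 were *Otx2* at 70 bp (fold enrichment 10), *Fgf8* at -2560 bp (7), *Eomes* at 18890 bp (63) and *Pmepa1* within the gene at 46546 bp (11). The median fold enrichment of all peaks was 21. *T* and *Mixl1* had no peak by this rule.

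**Figure D4:**
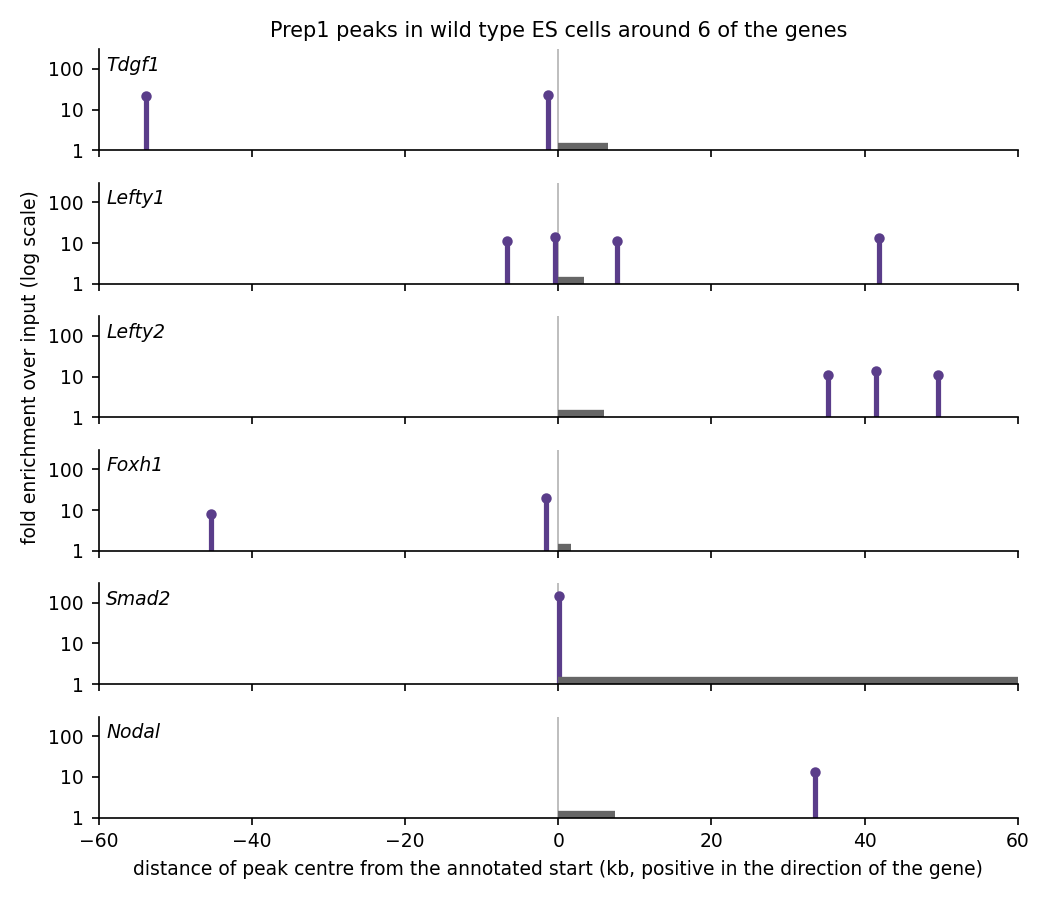
Prep1 peaks around 6 of the genes in wild type ES cells: the horizontal axis is the distance of the peak centre from the annotated start in kb (positive in the direction of the gene), the vertical axis the fold enrichment over input (log scale), and the dark bar the gene. Peaks lie near the starts of Tdgf1, Lefty1, Foxh1 and Smad2, the highest at Smad2 with 146, while Lefty2 and Nodal have none within 20 kb.

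The DNA under the peaks of *Lefty1*, *Tdgf1* and *Foxh1* is shown to give the letters around the match nearest to the centre of each peak, and the windows were cut around that match. Prep1 and Pbx together are known to bind the decamer TGANTGACAG, in which N is any base, and its last 6 bases, TGACAG, are the core read by Prep1 alone. Both strands were searched. The exact decamer occurred in 24.3% of all peaks, the decamer with at most 1 mismatch in 63.4%, and the hexamer, which lies within the decamer, in 58.4%. Each window below is read 5′ to 3′ from mm9 (NCBIM37), with that match in capitals.
Lefty1 upstream, chr1:182858404-182858533, plus strand: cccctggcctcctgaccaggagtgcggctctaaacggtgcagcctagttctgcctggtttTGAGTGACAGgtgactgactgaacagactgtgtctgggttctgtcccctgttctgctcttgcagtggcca
Lefty1 proximal, chr1:182864650-182864779, plus strand: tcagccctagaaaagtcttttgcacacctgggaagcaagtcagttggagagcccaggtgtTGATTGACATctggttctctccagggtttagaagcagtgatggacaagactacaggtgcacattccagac
Tdgf1, chr9:110849855-110849984, minus strand: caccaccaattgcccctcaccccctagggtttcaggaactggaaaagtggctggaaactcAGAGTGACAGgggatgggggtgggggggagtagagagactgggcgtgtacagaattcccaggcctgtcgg
Foxh1, chr15:76501879-76502008, minus strand: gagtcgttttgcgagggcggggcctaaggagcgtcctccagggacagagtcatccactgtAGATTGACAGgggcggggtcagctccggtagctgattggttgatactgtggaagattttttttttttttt

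The upstream *Lefty1* window holds an exact decamer, TGAGTGACAG, 54 bp from the centre of the peak. The proximal *Lefty1* window holds TGATTGACAT, 23 bp from the centre, which differs from the decamer by G10T, counted from 1 at the 5′ end of the motif. The *Tdgf1* window holds AGAGTGACAG, 14 bp from the centre, and the *Foxh1* window AGATTGACAG, 21 bp from the centre, and both differ by T1A. The windows were chosen for holding such a match, and the exact decamer occurred in 1 of the 6 peaks assigned to the signalling genes. The downstream *Lefty1* peak over *Tmem63a* held the hexamer 2 times and no decamer with at most 1 mismatch. The *Smad2* peak, the most enriched of the 6, held neither the decamer with at most 1 mismatch nor the hexamer. The octamer TGATTNAT, which the study names as the target sequence of the TALE protein Meis1, was present in 8.41% of all peaks and in none of the 6. These matches are a description of the letters and do not show which bases were bound.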

How the data were processed

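RNA-seq of 1 wild type and 1 *Prep1*-/- library and the peaks of 1 Prep1 ChIP sample called against 1 input were used. The authors sequenced polyA RNA as paired-end reads of 50 bp and assigned them to Ensembl release 63 genes (mm9) with RSEM, and analysed the quantification with DESeq. They deposited a whole-number read count per gene, without normalization, and an RPKM per gene, made from the count plus 1. The RPKM was listed as Inf for 85 genes, which were left out of ratios. The summed reads exceed the total stated in the methods. The authors aligned ChIP reads with BWA, called peaks with MACS and deposited a score per peak, the fold enrichment over input rounded to whole numbers. The submitters' processing notes give no versions.

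KO/WT ratios, exact 95% Clopper-Pearson intervals and Poisson intervals were computed. Intervals cover counting error only, since reads are not independent molecules. No count test was run, because each genotype has 1 library. Genes were placed by identifier in GENCODE M1 on NCBIM37, which found 21446 of 22718, and peaks were assigned within 20 kb of the annotated start or in the gene. Named genes are the 10 signalling genes, *Pknox1*, the genes of each list past a filter and the one with the most reads, and the neighbours of *Lefty1*. A few genes that this rule names are not reported here, though counts over lists include them. *Ppp1r16a*, *Eif4ebp2*, *Lhx1*, *Foxa2* and *Gsc* and the motif with 1 mismatch were added after values were seen. The genes and lists were chosen with earlier results of these data known. All 83 listed genes were found. Alternatives were 3 library scalings, 2 pseudocounts, other filters and thresholds, and other peak windows. The intervals were tested on simulated independent Poisson counts. Those held neither repeated counting of fragments nor spread between replicates, so the simulation does not bear on either. Python 3.11.15, numpy 2.4.6, pandas 2.3.3, scipy 1.17.1, pysam 0.24.0 and matplotlib 3.10.9 were used.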

Additional observations from a re-analysis of the deposited data

How the results depend on the processing

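No signalling gene was lower, and none was higher, under either pseudocount, any RPKM filter, the other thresholds or the scaling by chromosome. The count of higher genes was 1 when libraries were scaled by summed read counts (*Lefty2*, ratio 1.51) and 2 when the median ratio of expressed genes was set to 1 (*Lefty2* 1.53 and *Gdf3* 1.52). By counting intervals alone, 5 were lower and 3 higher. These changes follow from the small distance of *Lefty2* and *Gdf3* to the threshold and from the width of the interval. The interval of *Nodal* lay above 1 under all 3 other scalings (1.01 to 1.15, 1.02 to 1.17 and 1.06 to 1.21). That of *Lefty1* reached above 1 under scaling by summed reads (0.903 to 1.03) and by the median (0.919 to 1.04), and that of *Acvr2b* under scaling by chromosome (0.779 to 1.01). No ratio of the 9 genes with reads crossed 1. Their median log2 ratio was -0.05 with summed reads, -0.03 with the median set to 1 and -0.16 by chromosome, a calculation chosen after seeing the data. With *Cer1*, whose ratio comes only from the added read, the median was -0.02 as deposited and positive under these scalings (0.03, 0.05 and 0.01).

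Peaks were found for 4 genes within 5 kb (14.2% of all genes), 6 within 50 kb (32.6%), 4 with 50% of the peak in the window (20.8%), and 3 (without *Lefty1*) at a fold enrichment of at least 20 (12.9%), a limit chosen after seeing the data. A limit on the −log10 p of MACS was not run, since the deposited value is fold enrichment. No paired analysis was possible because each genotype has 1 library, which also leaves no replicate to omit. Depth limits *Cer1* and the targets with few reads.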
